A study of Mus musculus with 8 samples.

Results

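The 10 genes described here are the myosin heavy chains Myh6, Myh7 and Myh7b, the actins Acta1 and Actc1, the troponin I genes Tnni1 and Tnni3, and the stretch-response genes Ankrd1, Xirp1 and Xirp2, measured by RNA-seq in mouse left ventricle. They were chosen by name from 55487 gene identifiers, and all 10 were among the 14695 genes tested. The ventricles came from 12-week-old C57BL/6 mice. The 4 KO animals are titled CM-ADGRF5-KO and labelled as GPR116-/- in myocytes, ADGRF5 and GPR116 being names of one adhesion G protein-coupled receptor. The 4 control animals are titled NLC and labelled wild-type. Each group held 2 males (replicates 1 and 2) and 2 females (replicates 3 and 4). Sources used here do not name the promoter that drives removal of the receptor from myocytes, nor the alleles the controls carry. The series title places the receptor in cardiac homeostasis through Gαq, a G protein whose downstream kinases are known to drive the fetal gene program in cardiomyocytes.

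Libraries held 26.59 to 39.62 M gene reads in KO and 25.33 to 28.35 M in NLC. Adgrf5 itself stood at 224 ± 15.7 CPM (counts per M reads of the scaled library) in KO and 233 ± 17.4 CPM in NLC (SD, n = 4 each; log2 fold change -0.05, SE 0.0754, edgeR adjusted p = 0.782). Other cell types of the ventricle also transcribe it, so this level does not check the genotype labels, on which every direction below rests. The 10 ventricular cardiomyocyte markers were all detected, with a summed level of 62650 to 70000 CPM in KO and 64590 to 71600 CPM in NLC. In whole tissue, fewer cells of a type and less RNA per cell cannot be told apart.

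In the mouse heart, contractile proteins come in isoforms whose balance shifts around birth. The adult ventricle uses the fast α-myosin of Myh6, cardiac actin of Actc1 and cardiac troponin I of Tnni3, whereas the fetal ventricle uses more of the slow β-myosin of Myh7 and the slow skeletal troponin I of Tnni1, and it also expresses skeletal actin, the product of Acta1. Pressure overload, stretch and loss of thyroid hormone bring part of the fetal pattern back, and Ankrd1 and the Xin genes Xirp1 and Xirp2 encode proteins of the sarcomere and intercalated disc that respond to load. Thus a rise of Myh7 over Myh6, or of Acta1 over Actc1, is a usual sign of hypertrophic remodelling.

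The 3 myosin genes each carry a microRNA in an intron, and these are shown because they link the host genes into one family of regulators. The mature sequences below are from RefSeq (GRCm38.p6), 5′ to 3′, with the seed (bases 2 to 8) in capitals.
miR-208a-3p, in Myh6, chr14:54949072-54949093, minus strand: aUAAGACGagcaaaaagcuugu
miR-208b-3p, in Myh7, chr14:54975710-54975731, minus strand: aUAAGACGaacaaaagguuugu
miR-499-5p, in Myh7b, chr2:155622893-155622913, plus strand: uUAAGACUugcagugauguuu
The seed of miR-208a is identical to that of miR-208b at 7 of 7 bases, and that of miR-499 equals it at 6. The libraries were made from mRNA and do not measure mature microRNAs. Reads assigned to the Mir208a gene numbered 99 in KO and 65 in NLC over 4 libraries each (log2 fold change 0.51, SE 0.314, edgeR adjusted p = 0.508), those of Mir208b 0 in KO and 2 in NLC, and those of Mir499 3 in KO and 1 in NLC.

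The isoform ratios depend on telling near-identical messages apart, so the first 90 coding bases of the actins and of the α- and β-myosins are set beside each other, from the GENCODE M21 transcripts. Capitals mark the bases that differ within a pair.
Acta1: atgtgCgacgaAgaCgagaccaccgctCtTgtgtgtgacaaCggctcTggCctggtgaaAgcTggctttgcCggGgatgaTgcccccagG
Actc1: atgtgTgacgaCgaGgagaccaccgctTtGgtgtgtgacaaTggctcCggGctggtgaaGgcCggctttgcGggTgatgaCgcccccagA
Myh7: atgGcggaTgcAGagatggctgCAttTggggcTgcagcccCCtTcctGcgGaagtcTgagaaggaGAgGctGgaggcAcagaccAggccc
Myh6: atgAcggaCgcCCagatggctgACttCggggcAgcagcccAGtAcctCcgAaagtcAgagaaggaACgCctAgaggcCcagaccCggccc
The actins differed at 14 of these 90 bases and were 86.2% identical over the 1134 bases of the coding sequence, and no stretch of 50 bases was the same in both transcripts. The myosins differed at 20 of the 90 bases, but 22.2% of the 50-base stretches of the Myh7 transcript also occurred in Myh6. A read that lies wholly in such a stretch cannot be given to one gene, so both myosin levels and their ratio carry that uncertainty. Exon overlaps with other genes were small: 86 bases of Tnni3 with Dnaaf3 on the same strand and, on the opposite strand, 168 bases of Xirp2 with Gm13601, 114 bases of Myh6 with Gm49130 and 37 bases of Myh7b with Trpc4ap.

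Actc1 was the most abundant of the 10 messages per length, at a mean over the 8 libraries of 9656 CPM per kb of transcript. Tnni3 followed at 5346 and Myh6 at 4554 CPM per kb, and the ranges of these neighbours overlapped. Ankrd1 (853.5 CPM per kb) and Acta1 (494.6 CPM per kb) formed a middle pair with overlapping ranges. Xirp1, Myh7b, Xirp2 and Myh7 lay close together at 44.8, 35.5, 35.3 and 33.6 CPM per kb, each overlapping the next. Tnni1 was far below all others, at 0.632 CPM per kb. The adult isoform of each pair thus dominated in every library of both genotypes.

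**Figure D1:**
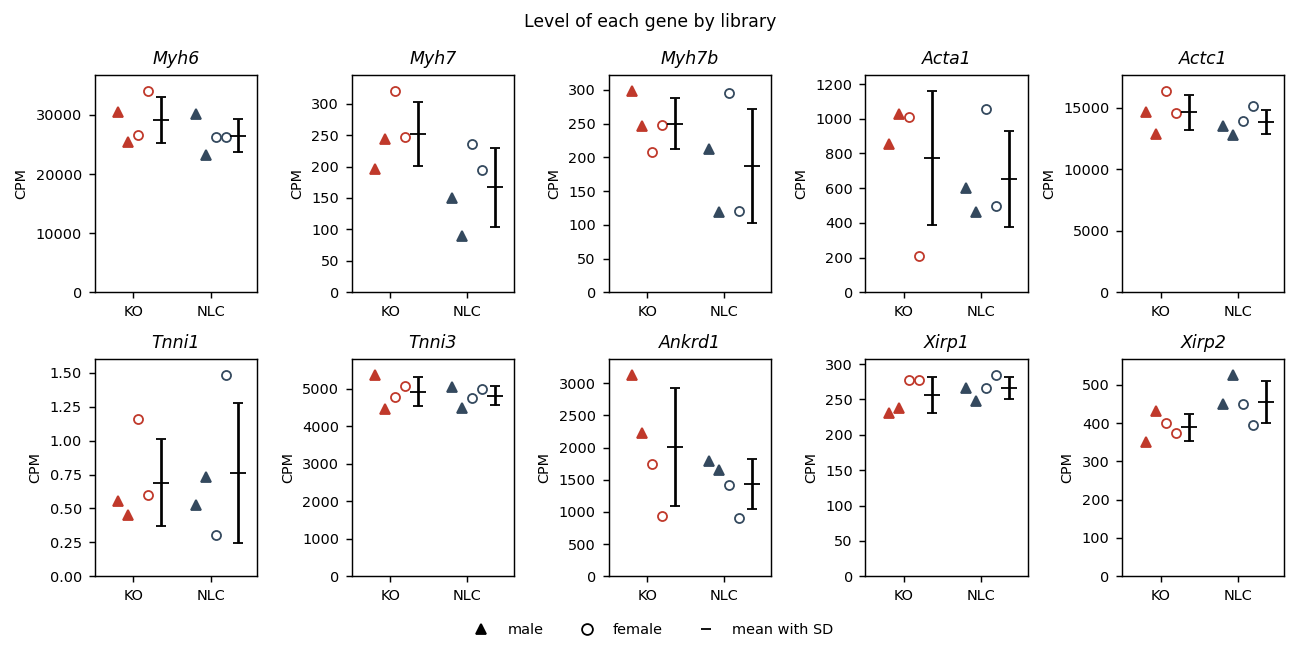
Level of each of the 10 genes in CPM (linear axes from 0) in the 4 KO libraries (left, red) and the 4 NLC libraries (right, dark), with males as filled triangles, females as open circles, and the mean with SD to the right of each group. For every gene the range of the KO libraries overlaps that of the NLC libraries.

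None of the 10 genes passed the test of KO against NLC, in which 15 genes (0.102% of those tested) passed at an edgeR adjusted p under 0.05. That total rested on single libraries: it was 0 without KO replicate 2 or 3 or NLC replicate 1 or 2, 4 without KO replicate 1 or 4, and 50 without NLC replicate 3. At an unadjusted p under 0.05, 2 of the 10 stood out, Myh7 with a higher and Xirp2 with a lower level in KO, beside 11.9% of all genes tested. The log2 fold change was above 0 for 7 of the 10, with a median of 0.11, beside 49% and a median of -0.01 for all genes. No member's KO and NLC libraries were fully apart, which was the case for 6.25% of all genes.

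Among the myosin heavy chains, β-myosin had the lowest p of the 10 genes. Myh7 (ENSMUSG00000053093, chr14:54970684-54994626 of GRCm38, minus strand) was measured at 196.9, 244.0, 320.9 and 246.8 CPM in KO replicates 1 to 4, against 150.0, 88.84, 235.4 and 194.0 CPM in NLC replicates 1 to 4. The groups overlapped through female NLC replicate 3 and male KO replicate 1, but within each sex both KO libraries lay above both NLC libraries, an arrangement, in one direction or the other, that 12% of all genes showed. Means were 252 ± 51.2 CPM in KO and 167 ± 62.7 CPM in NLC (SD, n = 4 each), a log2 fold change of 0.64 (SE 0.176, 95% interval 0.25 to 1.03, edgeR adjusted p = 0.246). DESeq2 gave a log2 fold change of 0.64 with an adjusted p of 0.0147, past the threshold, which 148 genes passed in that fit. Over 16 alternatives the log2 fold change stayed between 0.46 and 0.76, and the adjusted p ran from 9.51e-11, in the edgeR fit without a filter on low counts, to 0.564, without KO replicate 1.

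Exons on the opposite strand cover part of Myh7, namely 484 bases of the long noncoding RNA Mhrt, 523 bases of Gm31251 and 142 bases of Gm29015. The kit marks strand, but the setting used in counting is not stated, so reads in these bases may not be separated. Mhrt, which is transcribed antisense to Myh7 and known in mice to restrain hypertrophy, lay at 89.7 to 122.4 CPM in KO and 84.1 to 131.4 CPM in NLC (log2 fold change -0.02, SE 0.141, edgeR adjusted p = 0.962). Gm31251 lay at 73.4 to 102.9 CPM in KO and 54.3 to 109.9 CPM in NLC. Neither passed the test, and both sets of libraries overlapped.

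Myh6 (ENSMUSG00000040752, chr14:54941921-54966927) lies just downstream of Myh7 on the same strand. It stood at 30430, 25420, 26630 and 34120 CPM in KO and at 30220, 23250, 26290 and 26350 CPM in NLC. KO replicate 4 was the highest and NLC replicate 2 the lowest, and the other libraries of both groups intermingled. Myh6 thus had a log2 fold change of 0.14 (SE 0.113, edgeR adjusted p = 0.618), and -7.71% and 30.6% bound the 95% interval of the change.

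Relative to Myh6 and per kb of transcript, Myh7 amounted to 0.635%, 0.942%, 1.18% and 0.710% in KO replicates 1 to 4, against 0.487%, 0.375%, 0.879% and 0.723% in NLC replicates 1 to 4. The share was lowest in the male controls and highest in female KO replicate 3, and the groups overlapped. The mean ratio was 0.867% ± 0.248 in KO and 0.616% ± 0.227 in NLC (SD, n = 4 each). The ratio was 1.44 times as high in KO on the log scale (log2 difference 0.53, SE 0.343). Exact permutation of the genotype labels across both sexes in 70 arrangements, two-sided, gave p = 0.2 (0.6 adjusted over the 3 ratios), where 0.0286 is the smallest p possible. Permutation within each sex, in 36 arrangements, gave p = 0.167, and as its smallest possible p is 0.0556 it could not pass 0.05. In males both KO libraries were above both NLC libraries (log2 difference 0.86), and in females the groups overlapped (0.20). The library numbers place both male KO libraries before both male NLC libraries, so in males genotype and library order cannot be told apart.

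The starts of both genes are shown because the ratio sets their output against each other. Each window runs from 250 bases before to 50 bases after a RefSeq start (GRCm38.p6), and capitals mark the M-CAT motif CATTCC, searched on both strands (GGAATG on the strand shown), which TEAD factors bind, and the TATA motif TATAAA on the strand shown.
Myh7, chr14:54994577-54994876, minus strand: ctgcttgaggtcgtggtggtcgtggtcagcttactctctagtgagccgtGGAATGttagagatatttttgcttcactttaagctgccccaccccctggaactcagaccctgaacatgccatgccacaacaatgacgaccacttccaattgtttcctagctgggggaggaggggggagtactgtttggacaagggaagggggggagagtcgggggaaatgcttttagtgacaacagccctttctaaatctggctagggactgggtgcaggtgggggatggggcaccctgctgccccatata
Myh6, chr14:54966558-54966857, minus strand: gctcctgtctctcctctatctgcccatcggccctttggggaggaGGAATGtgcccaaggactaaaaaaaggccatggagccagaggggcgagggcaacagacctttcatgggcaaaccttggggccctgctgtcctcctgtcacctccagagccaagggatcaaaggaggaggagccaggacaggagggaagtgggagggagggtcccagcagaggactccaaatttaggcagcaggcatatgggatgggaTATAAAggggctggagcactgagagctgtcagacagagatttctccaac
The M-CAT letters occur once in each, 201 bases before the Myh7 start and 206 bases before the Myh6 start. They are also present in the windows of Acta1 and Ankrd1, which makes 4 of the 11 windows of members, beside 14.7% of all 32851 windows of this length, or 4 of the 9 members with a window, beside 16.6% of all 27025 genes. TATAAA occurs in 3 of the 11 windows of members (Acta1, Actc1 and Myh6), beside 8.32% of all windows. In the Myh6 window it begins 1 base after the RefSeq start. Distances are from these annotated starts, and whether transcription begins there was not tested. A second Myh7 window, from a neighbouring start, lacks both motifs and is not shown.

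Myh7b, which encodes a slow-type myosin found at low level in heart and hosts Mir499, varied more among controls than among KO animals. It stood at 299.0, 246.9, 207.3 and 247.4 CPM in KO and at 213.1, 118.8, 295.9 and 120.7 CPM in NLC. NLC replicates 2 and 4 were the lowest of the 8 libraries, while NLC replicate 3 was level with the highest KO library. Its coefficient of variation was 15% in KO and 45.3% in NLC, and the log2 fold change of 0.42 (SE 0.270, edgeR adjusted p = 0.518) did not pass. It was 0.80 without NLC replicate 3 (adjusted p = 0.0846), 0.21 without NLC replicate 2 (0.868) and 0.26 without NLC replicate 4 (0.700).

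**Figure D2:**
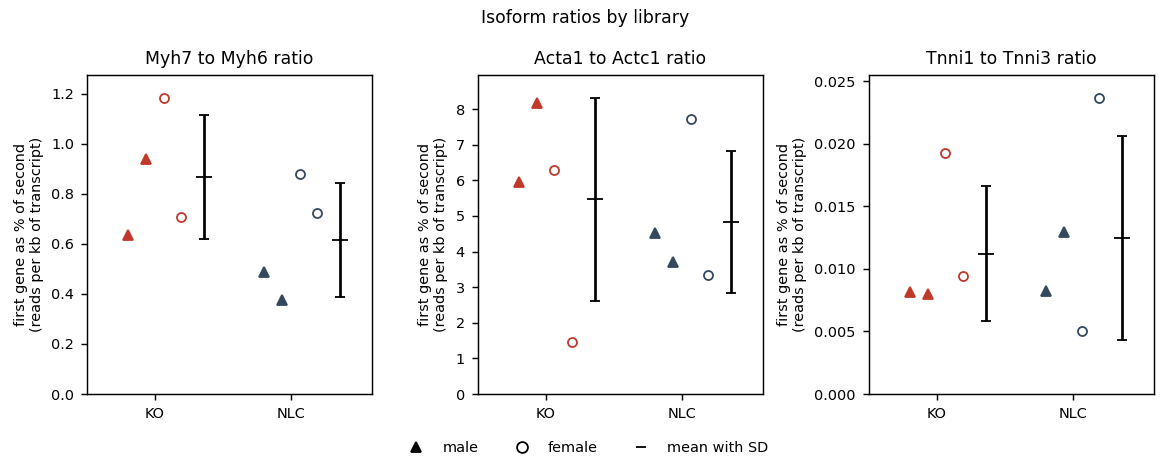
Ratios of fetal to adult isoform per library, as the first gene's reads per kb of transcript in percent of the second's (linear axes from 0), for Myh7 to Myh6, Acta1 to Actc1 and Tnni1 to Tnni3. KO libraries (left, red) and NLC libraries (right, dark) overlap in all 3 ratios; triangles are males, open circles females, and the bars show the mean with SD.

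Of the actins, Acta1 spread widely within both groups and Actc1 hardly at all. Acta1 (ENSMUSG00000031972, chr8:123891769-123894751) was measured at 856.2, 1029, 1011 and 209.0 CPM in KO and at 599.9, 463.6, 1058 and 495.2 CPM in NLC. Female KO replicate 4 was the lowest of all 8 libraries and female NLC replicate 3 the highest, against the order of the group means of 776 ± 386 CPM in KO and 654 ± 276 CPM in NLC (SD, n = 4 each). A log2 fold change of 0.24 resulted (SE 0.440, edgeR adjusted p = 0.833), with changes of -40.1% and 132% as the ends of the 95% interval. Without KO replicate 4 it was 0.65, without NLC replicate 3 it was 0.61 and without KO replicate 3 it was -0.10, none past the threshold.

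Actc1 (ENSMUSG00000068614, chr2:114047282-114053548) stood at 12840 to 16380 CPM in KO and 12740 to 15100 CPM in NLC, a log2 fold change of 0.08 (SE 0.0774, edgeR adjusted p = 0.670). The ratio of Acta1 to Actc1 per kb was 5.94%, 8.16%, 6.29% and 1.46% in KO, against 4.52%, 3.71%, 7.73% and 3.34% in NLC. Its spread was thus that of Acta1, with 3 KO libraries and 1 NLC library above the remaining 4. The mean was 5.46% ± 2.84 in KO and 4.82% ± 2.00 in NLC (SD, n = 4 each; log2 difference 0.01, SE 0.621, exact two-sided permutation p = 1). The log2 difference was 0.77 in males, where both KO libraries exceeded both NLC libraries, and -0.75 in females. For Acta1 itself the difference between the sexes in the KO effect was 1.17 (SE 0.823, edgeR adjusted p = 0.710), which does not show that the sexes differed.

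Skeletal muscle also makes the product of Acta1. The 11 other skeletal muscle markers summed to 2580 to 3600 CPM in KO and 2277 to 2876 CPM in NLC. That sum is not the level of each marker. Tnni2, the fast skeletal troponin I among them, lay at only 2.33 to 4.02 CPM in KO and 1.31 to 2.39 CPM in NLC. Of the 11 markers, 8 were tested, and 8 of 8 had a log2 fold change above 0 with a median of 0.72, but 0 passed the test. At an unadjusted p under 0.05, 4 of the 8 were higher in KO, beside 11.9% of all genes in either direction. Myh4, a defining fast skeletal myosin, was the only 1 of the 11 with 0 reads in all 8 libraries. The part of such transcripts in the Acta1 values was not tested.

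**Figure D3:**
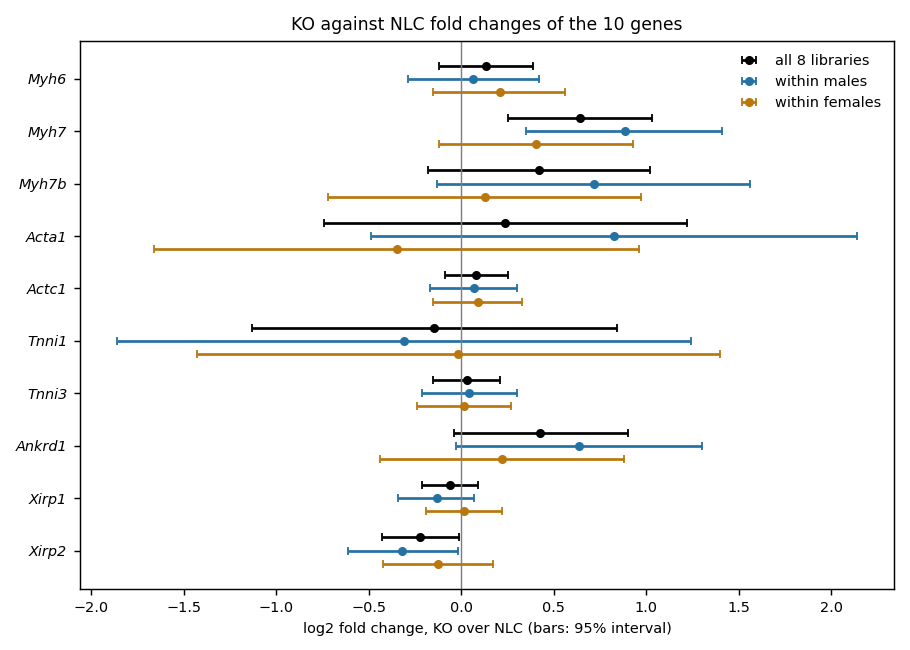
Log2 fold change of KO over NLC (x axis) with its 95% interval for each of the 10 genes, over all 8 libraries (black), within males (blue) and within females (orange). The intervals of Myh7 and Xirp2 over all libraries and within males do not reach 0, yet 0 of the 10 genes passed the adjusted threshold in any of these contrasts.

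Troponin I message was almost all of the adult isoform in both genotypes. Tnni3 (ENSMUSG00000035458, chr7:4518305-4524229) ranged from 4470 to 5381 CPM in KO and from 4505 to 5055 CPM in NLC, and it had the smallest absolute log2 fold change of the 10 genes, 0.03 (SE 0.0808, edgeR adjusted p = 0.890). A change outside -9.86% to 15.6% lies beyond its 95% interval. Tnni1 (ENSMUSG00000026418, chr1:135779434-135810989) had only 21, 13, 33 and 16 reads in KO and 14, 18, 9 and 43 reads in NLC, or 0.555, 0.450, 1.16 and 0.601 CPM in KO and 0.525, 0.734, 0.304 and 1.49 CPM in NLC. The groups overlapped entirely, with both the lowest and the highest library in NLC.

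Per kb of transcript, Tnni1 reached 0.0112% ± 0.00539 of Tnni3 in KO and 0.0125% ± 0.00812 in NLC (SD, n = 4 each). The log2 difference was -0.03 (SE 0.560, exact two-sided permutation p = 0.914). In males it was -0.35, opposite in sign to the other ratios. There KO replicates 1 and 2 (0.008185% and 0.007977%) lay below NLC replicates 1 and 2 (0.008232% and 0.01293%), by little for NLC replicate 1. In females the groups overlapped (0.30). At these read numbers counting error was large: as a share of the reads of both genes, Tnni1 made up 0.0242% in KO replicate 3 (95% Clopper-Pearson interval 0.0167 to 0.034%, counting error only) and 0.00639% in NLC replicate 3 (0.00292 to 0.0121%). The log2 fold change of Tnni1 itself, -0.15 (SE 0.444, edgeR adjusted p = 0.902), could be anything from -1.13 to 0.84 by its 95% interval.

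Atrial transcripts differed between the ventricle pieces, and the order of the libraries in Tnni1 and Myh7b followed them in part, in opposite ways. Such an order is not given here for the other members, and Tnni1 rests on 9 to 43 reads a library. The atrial score, which is the mean log2 CPM of the atrial markers after centring each on its mean, was -1.71, -0.58, 1.01 and -0.56 in KO replicates 1 to 4 and 0.13, 0.99, -2.00 and 2.72 in NLC replicates 1 to 4. NLC replicate 4, KO replicate 3 and NLC replicate 2 had the highest scores, and these were also the 3 libraries highest in Tnni1 and lowest in Myh7b. NLC replicate 3, with the lowest score, had the lowest Tnni1 and a Myh7b level second only to KO replicate 1. All 13 atrial markers were detected, their sum was 902.6 to 1444 CPM in KO and 673.8 to 3747 CPM in NLC, and 0 of 11 tested passed. Of these 11, 1 had a log2 fold change above 0, beside 49% of all genes, and the median was -0.90. Lower in KO at an unadjusted p under 0.05 were 3 of them, beside 11.9% of all genes in either direction. Myl7, the atrial regulatory light chain, ran from 0.265 to 182.8 CPM in KO and from 0.371 to 983.4 CPM in NLC. Bmp10, an atrial growth factor, was too low to compare, at 0.02645 CPM or less in KO and 0.2075 CPM or less in NLC, and did not enter the score. It had 0 reads in KO replicates 2, 3 and 4 and in NLC replicate 2. With the score as a covariate the log2 fold change of Tnni1 was 0.43 in place of -0.15 (edgeR adjusted p = 0.640) and that of Myh7 0.60 in place of 0.64 (0.197). For Myh7b it was 0.24 in place of 0.42 (0.479), and within males 0.26 in place of 0.72 (0.519). Beyond these fits, the part of atrial tissue in the values was not tested.

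**Figure D4:**
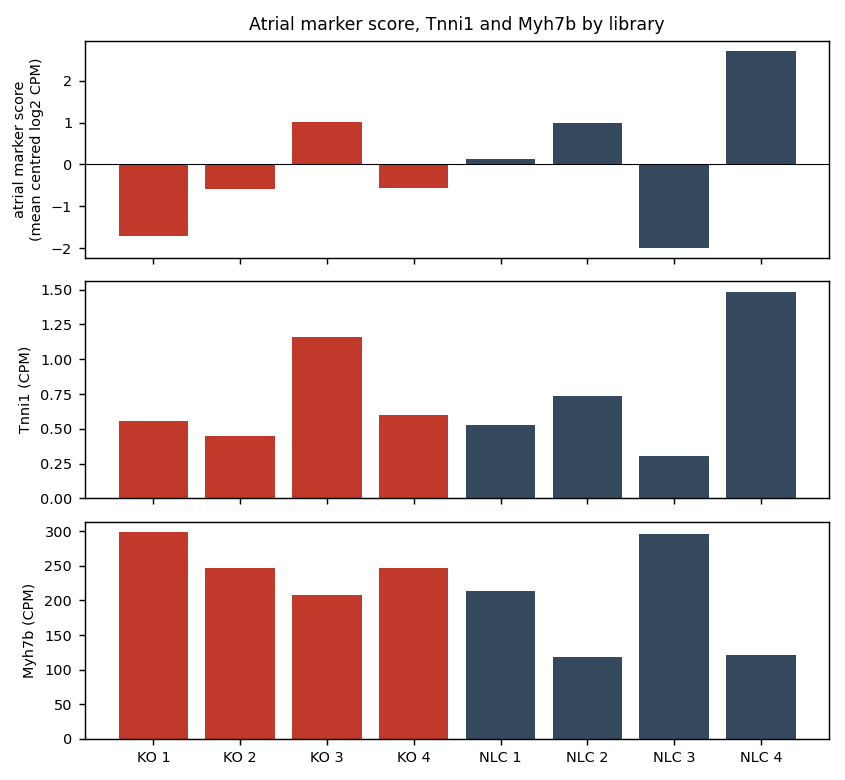
Atrial marker score (top, mean centred log2 CPM), Tnni1 (middle, CPM) and Myh7b (bottom, CPM) in each library, KO in red to the left and NLC in dark to the right. NLC replicate 4 has the highest score and the highest Tnni1, and NLC replicates 2 and 4 have the lowest Myh7b.

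None of the 3 stretch-response genes passed the test, Ankrd1 having a log2 fold change above 0 and the Xin genes below. Ankrd1 (ENSMUSG00000024803, chr19:36111961-36120099) encodes the cardiac ankyrin repeat protein, which sits at titin in the sarcomere and is induced by load. It stood at 3131, 2220, 1751 and 938.5 CPM in KO and at 1787, 1655, 1410 and 900.8 CPM in NLC. Both male KO libraries exceeded all controls, whereas female KO replicate 4 was close to the lowest control. The means were 2010 ± 916 CPM in KO and 1438 ± 391 CPM in NLC (SD, n = 4 each), a log2 fold change of 0.43 (SE 0.210, 95% interval -0.04 to 0.90, edgeR adjusted p = 0.435). Without KO replicate 1 or 3 it was 0.28 (adjusted p = 0.771 and 0.634). It was 0.64 (SE 0.295) within males and 0.22 (SE 0.294) within females, and the difference between the sexes was 0.42 (SE 0.416, edgeR adjusted p = 0.789).

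Xirp2 (ENSMUSG00000027022, chr2:67446002-67526614), which encodes the actin-binding protein myomaxin of the intercalated disc and Z-disc, was measured at 350.6, 432.7, 399.4 and 373.7 CPM in KO and at 451.0, 526.3, 448.7 and 394.5 CPM in NLC. The 3 highest libraries were NLC replicates 2, 1 and 3, and the groups overlapped because KO replicates 2 and 3 lay above NLC replicate 4. The log2 fold change was -0.22 (SE 0.0949, 95% interval -0.43 to -0.01, edgeR adjusted p = 0.402), and it stayed between -0.28 and -0.15 over 16 alternatives. Xirp1 (ENSMUSG00000079243, chr9:120013755-120023598), its paralog, stood at 230.7 to 278.2 CPM in KO and 247.5 to 285.0 CPM in NLC, a log2 fold change of -0.06 (SE 0.0674, edgeR adjusted p = 0.716). The Xin genes were thus the least variable of the stretch-response genes, with coefficients of variation of 9.06% to 9.92% in KO and 5.75% to 11.9% in NLC, against 45.6% in KO and 27.2% in NLC for Ankrd1.

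Males and females were also compared over both genotypes. The library numbers place all 4 male libraries (1 to 4) before all 4 female libraries (5 to 8). Sex and library order therefore cannot be told apart in this comparison. Ankrd1 averaged 2198 ± 667 CPM in males and 1250 ± 407 CPM in females (SD, n = 4 each), a log2 fold change of males over females of 0.78 (SE 0.211, edgeR adjusted p = 0.200). Without NLC replicate 3 it was 0.97 with an adjusted p of 0.0444, where 176 genes were called. Over 14 alternatives the adjusted p ran from 4.03e-19, without a filter on low counts (742 genes called), to 0.436. Myh7 went the other way, with 170 ± 66.3 CPM in males and 249 ± 52.9 CPM in females (log2 fold change -0.60, SE 0.176, adjusted p = 0.226). Its adjusted p was 0.0193 by DESeq2, where 232 genes were called, within a range of 1.37e-09 to 0.536 over 14 alternatives. Xirp1 averaged 246 ± 15.6 CPM in males and 277 ± 8.0 CPM in females (log2 fold change -0.17, SE 0.0674, adjusted p = 0.334). These 3 genes reached an unadjusted p under 0.05, beside 12.8% of all genes tested, and 0 of the 10 passed after adjustment, where 44 genes (0.299%) did. In all 10 the male and female libraries overlapped, whereas they were fully apart for 6.87% of all genes.

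Within males, Myh7 had a log2 fold change of KO over NLC of 0.88 (SE 0.235, edgeR adjusted p = 0.179) and Xirp2 of -0.32 (SE 0.131, adjusted p = 0.261). These 2 of the 10 reached an unadjusted p under 0.05, beside 17.5% of all genes, and the 6 genes called (0.0408%) included none of the 10. The male libraries of the genotypes were apart for 6 of the 10 (Myh7, Myh7b, Acta1, Ankrd1, Xirp1 and Xirp2), beside 50.9% of all genes, a share near the background. The female libraries of the genotypes were apart for Myh6 and Myh7 only, and the share of all genes for this was not computed. Within females 0 of the 10 reached an unadjusted p under 0.05, beside 5.12% of all genes (753). In all, 0 genes were called there, and 17 by DESeq2. The female log2 fold change of Myh7 was 0.40 (SE 0.233). The difference between males and females in the KO effect ranged from -0.29 (Tnni1) to 1.17 (Acta1), and 0 of the 10 had an unadjusted p under 0.05, beside 7.46% of all genes (0 called by edgeR, 1096 at an unadjusted p under 0.05, 15 called by DESeq2). In an edgeR fit without a filter on low counts, where the spread of genes is pooled completely, more members passed, as did more genes in all. Over all libraries Myh7, Myh7b and Ankrd1 passed (adjusted p = 9.51e-11, 0.000184 and 1.8e-05), beside 621 of the 27953 genes in that fit. Within males these and Acta1 passed, beside 1007 genes, and within females Myh7 did (0.0401), beside 277 genes. In the difference between the sexes Acta1 and Myh7b (0.0453) passed, beside 243 genes. Over its 16 alternatives the adjusted p of Myh7b reached 0.868 and that of Ankrd1 0.775, and within females that of Myh7 reached 1 over 15.

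Genes around the members were examined as 3 lists. Of 28 partners in the contractile apparatus, 22 were tested and 0 passed in either direction, with a median log2 fold change of 0.08. Before adjustment 5 were higher and 2 lower in KO at p under 0.05, beside 11.9% of all genes in either direction. The lowest p-values belonged to Tnni2, the fast skeletal troponin I (3.15 ± 0.881 CPM in KO and 1.76 ± 0.509 CPM in NLC, log2 fold change 0.81, SE 0.220, edgeR adjusted p = 0.243), and to the fast skeletal light chain Myl1 (-0.71, SE 0.235, adjusted p = 0.336). Tnnc1, the troponin C of heart and slow muscle, averaged 3135 ± 285 CPM in KO and 2602 ± 276 CPM in NLC (log2 fold change 0.27, SE 0.0985, adjusted p = 0.350). Its libraries did not overlap, which was the case for 6.25% of all genes tested. The nonmuscle myosin Myh14 had a log2 fold change of 0.29 (SE 0.105, adjusted p = 0.350). None of these differences was large enough for its spread to be called.

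Of 29 further stretch and hypertrophy genes, 28 were tested, with a median of 0.00 and 14 above 0. Before adjustment 4 were higher and 3 lower in KO at p under 0.05, beside 11.9% of all genes, and 0 passed after it. Uchl1, a deubiquitinase that is known to rise in hypertrophied muscle, came nearest, at 14.5 to 18.8 CPM in KO and 8.65 to 12.4 CPM in NLC (log2 fold change 0.65, SE 0.125, edgeR adjusted p = 0.129). Its groups did not overlap, which was the case for 6.25% of all genes tested. Desmin (Des) averaged 2861 ± 150 CPM in KO and 2463 ± 200 CPM in NLC, also without overlap (0.22, SE 0.0682, adjusted p = 0.309). The stress hormone gene Gdf15 ranged from 1.20 to 5.92 CPM in KO and from 1.18 to 1.86 CPM in NLC (1.22, SE 0.418, adjusted p = 0.344), and the mTOR inhibitor gene Ddit4l had a log2 fold change of -0.63 (SE 0.223, adjusted p = 0.350). The natriuretic peptide genes, classic partners of the fetal program, overlapped between groups. Nppa lay at 864.0, 614.3, 1034 and 336.1 CPM in KO and 283.3, 445.7, 378.9 and 3778 CPM in NLC (-0.29, SE 0.756, adjusted p = 0.884). NLC replicate 4, far above the rest, was also the library with the highest atrial score, 2.72. The part of atrial tissue in the Nppa values was not tested. Nppb lay at 109.8 to 190.6 CPM in KO and 61.9 to 222.1 CPM in NLC (0.43, SE 0.315, adjusted p = 0.568).

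Of 39 regulators of these isoforms, 38 were tested and 0 passed, with a median of -0.08 and 10 above 0. Before adjustment 2 were higher and 5 lower in KO at p under 0.05, beside 11.9% of all genes in either direction. Nkx2-5, a core cardiac transcription factor, averaged 104 ± 25.2 CPM in KO and 78.6 ± 5.03 CPM in NLC, and its libraries did not overlap (log2 fold change 0.39, SE 0.112, edgeR adjusted p = 0.277). Thrb, a thyroid hormone receptor, averaged 13.5 ± 0.832 CPM in KO and 16.3 ± 1.23 CPM in NLC, also without overlap (-0.26, SE 0.0770, adjusted p = 0.283). Such separation held for 6.25% of all genes tested, and the genes named from each list were picked for their low p. Hopx, a homeodomain protein that restrains SRF, had a log2 fold change of 0.36 (SE 0.116, adjusted p = 0.320), and the estrogen-related receptor gene Esrrg one of -0.36 (SE 0.131, adjusted p = 0.350). Each of the 3 lists thus held 0 genes past the threshold.

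**Figure D5:**
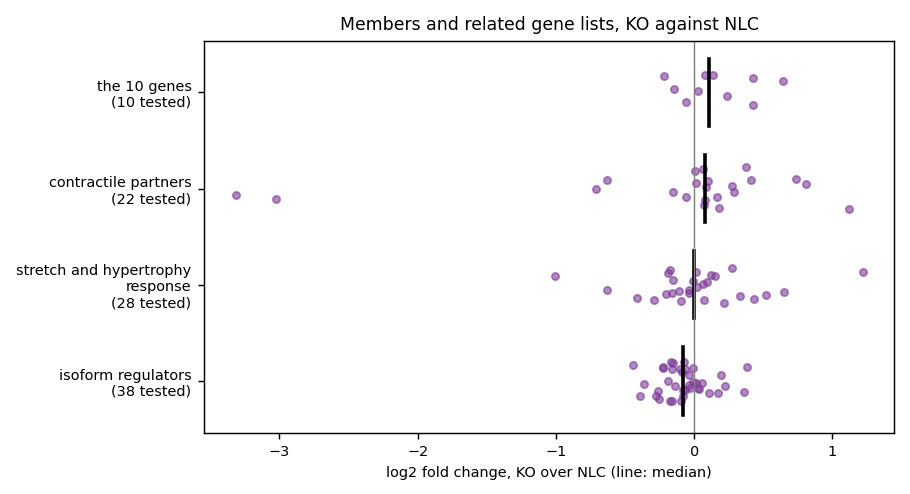
Log2 fold change of KO over NLC (x axis) for the 10 genes and for the tested genes of the 3 related lists, 1 point per gene, with the median of each row as a black line. The medians are 0.11 for the 10 genes, 0.08 for contractile partners, 0.00 for the stretch and hypertrophy response and -0.08 for the regulators, and 0 of the points passed the adjusted threshold.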

How the data were processed

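The authors deposited raw read counts per Ensembl gene, 1 file per library, with 55487 identifiers and 5 summary entries. Per the labels' protocols, the kit was a strand-marking TruSeq one for mRNA. The submitters' processing notes list STAR, HTSeq, DESeq2 and GRCm38, without versions or a strand setting. Entries that name no gene were left out; they comprised multiply mapped reads (16.8% to 20.3% of reads), reads outside genes (3.07% to 4.08%) and ambiguous reads (1.26% to 1.38%).

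Symbols and positions came from GENCODE M21, which paired 55141 identifiers with a symbol. Tests used edgeR 4.0.16 in R 4.3.3 (filterByExpr by genotype, TMM factors, quasi-likelihood test with sex as an additive term, Benjamini-Hochberg adjustment over all 14695 genes, threshold 0.05). For contrasts within a sex, each combination of sex and genotype had its own mean. CPM use TMM-scaled library sizes, and levels per kb use the protein-coding transcript with the longest reading frame. Ratios were compared by exact permutation of log2 read ratios. The labels call the animals biological replicates, and every pair of a group differed by more than counting noise (chi-square per degree of freedom 15.2 to 41.4). The fit was tested on simulated counts. Alternatives comprised DESeq2 1.42.0, other scalings and filters, a fit without sex, a replicate block, an atrial covariate and each library left out. A count of 0 allows up to 0.0793 to 0.122 CPM (3 counts per library, counting error only).

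The members and lists were chosen with earlier results of these data known. Named beside the 10 members and Adgrf5 were, per list, called genes and up to 4 more with the lowest p and a mean of at least 1 CPM, and the microRNA and antisense genes of the myosins. Gm31251, Myl7, Bmp10, Myh4, Nppa and Nppb were named after their values were seen.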

Additional observations from a re-analysis of the deposited data

Results flagged for a closer look

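In the Tnni1 to Tnni3 ratio, KO replicate 3 stood apart from its group. Its 0.0192% per kb compares with 0.00798% to 0.0094% in the other 3 KO libraries, a gap of 0.874 of the group's range, above Dixon's critical value for 4 samples. Of 26 groups of 4 values examined (10 genes and 3 ratios in each genotype) this was the only one, and chance alone marks about 1 in 20 groups. The library had 33 Tnni1 reads and an atrial score of 1.01, the highest in KO.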

How the results depend on the processing

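Counts of genes called are given for KO against NLC, KO against NLC within males, within females, the difference between the sexes, and males against females, in that order. They were 15, 6, 0, 0 and 44 as reported, 148, 312, 17, 15 and 232 by DESeq2, 621, 1007, 277, 243 and 742 in edgeR without a filter on low counts, and 38, 46, 0, 6 and 69 with the atrial score as covariate. Without the filter 27953 genes entered and edgeR's prior degrees of freedom became infinite, against 5.22 with it. Without sex in the fit the first count was 6. Leaving out 1 library gave 0 to 50, 0 to 59, 0 to 81, 0 to 8 and 16 to 176; NLC replicates 3 and 4 gave the high ends. RLE scaling, a minimum of 1 CPM in 4 libraries and removal of mitochondrially encoded genes moved no count by over 1.5 times.

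The replicate numbers did not pair the samples (r of same-numbered deviations 0.335, 0.191, -0.213 and 0.122). With a replicate block 0 genes were called for KO against NLC and 0 within males, and Tnni1 within females turned to 0.1776.

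Of 745 alternative values, 8 changed sign under another setting and 47 with a library left out, none of them past a threshold, and the cause was not tested. With the atrial covariate these were Tnni1 (0.4324 for KO against NLC, 0.5173 in males, 0.3716 in females, 0.1458 between the sexes), Myh6 in males (-0.01104), Actc1 between the sexes (0.005532) and Acta1 in males against females (-0.04475). For KO against NLC, leaving out 1 library gave log2 fold changes of Acta1 -0.101 to 0.6503, Tnni1 -0.5207 to 0.365 and Tnni3 -0.02949 to 0.07588. Within males, leaving out 1 library gave log2 fold changes of Actc1 -0.03395 to 0.1546, Myh6 -0.1192 to 0.2621 and Tnni3 -0.0977 to 0.1655. Within females, leaving out 1 library gave log2 fold changes of Acta1 -1.893 to 0.3798, Ankrd1 -0.2992 to 0.6003, Myh7b -0.3799 to 0.9147, Tnni1 -0.7457 to 1.529, Tnni3 -0.02782 to 0.05964 and Xirp1 -0.03425 to 0.06587. For the difference between the sexes, leaving out 1 library gave log2 fold changes of Actc1 -0.1248 to 0.06388, Myh6 -0.3249 to 0.05626, Myh7b -0.1973 to 1.097, Tnni1 -1.836 to 0.4405 and Tnni3 -0.1133 to 0.15. For males against females, leaving out 1 library gave log2 fold changes of Acta1 -0.371 to 0.414, Myh6 -0.1483 to 0.04183, Myh7b -0.1923 to 0.3415 and Tnni3 -0.07423 to 0.03092. The log2 differences of the ratios ran over 0.3157 to 0.7251 for Myh7 to Myh6, -0.2654 to 0.5621 for Acta1 to Actc1 and -0.384 to 0.3568 for Tnni1 to Tnni3. Where an arm within a sex kept 1 library, that library was assumed to vary like the others. Tnni1, with 9 to 43 reads a library, is limited by depth.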
